A study of Ambystoma mexicanum with 5 samples.

Results

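The genes described here carry the names of the respiratory chain proteins that animal mitochondria encode in their own DNA: the ND subunits of complex I, COX1 to COX3 of complex IV (also written CO1 to CO3), CYTB of complex III, and ATP6 and ATP8 of the ATP synthase. Members were all rows of the deposited count table whose gene name, after its source tags and a leading MT- were removed, matched one of these names. There were 25 such gene models among 100758 in the table: 11 ND models, 9 COX models and 5 CYTB models. RNA came from whole kidneys of 5 different axolotls (Ambystoma mexicanum), a salamander, with 1 library per animal. The control group held 3 untreated animals, and the treated group held 2 animals with kidney injury from gentamicin, whose labels carry the numbers 1 and 3. Gentamicin is an aminoglycoside antibiotic that proximal tubule cells take up and that damages them. No strain, age, sex or transgene is used here, and neither are the dose and the interval after treatment. The libraries held 13674201 to 16404879 counts, and a library in which a model has 0 counts can hide up to 3, equal to 0.156 to 0.244 CPM (counts scaled to TMM-adjusted library size), for counting error only.

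Mitochondrial DNA is a small ring present in many copies per cell. It is transcribed into long precursor RNAs that are cut into messenger, ribosomal and transfer RNAs, and its messages are translated on ribosomes inside the organelle. The proteins it encodes form the membrane core of complexes I, III and IV and of the ATP synthase, each of which also needs subunits encoded in the nucleus, whereas complex II is wholly nuclear encoded. Proximal tubule cells of the kidney are rich in mitochondria because solute reabsorption uses much ATP. Copies of mitochondrial DNA also lie in nuclear genomes, where they are usually inactive, and a read from a mitochondrial message can align to such a copy.

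None of the 25 models lay on a mitochondrial chromosome: 0 rows of the table were on one. They lay instead on 7 nuclear chromosome arms, at 8 places when models within 100000 bases of each other were joined, and 23 were on the plus strand and 2 on the minus strand. Coordinates are as deposited, and most identifiers there begin with AMEX60DD. The count of a model therefore cannot be told apart into RNA made in mitochondria and RNA made from the nuclear copy. Reads shared between near-identical copies could also have been split among them or left out, because the sources used here do not state how reads that align to several places were treated, nor the strand setting.

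The most abundant place was on arm 5p, chr5p:1033692261-1033708427, which spans 16167 bases. It holds the MT-CO1 model (AMEX60DD038501, named COI and MT-CO1 in the table), at chr5p:1033692261-1033693989, and the ND5 model (AMEX60DD038502), at chr5p:1033694321-1033708427. The ND5 model is 14107 bases long and overlaps 3 further models that carry no gene name, have 0 counts and are described as NADH-ubiquinone oxidoreductase chain 1, chain 5 and cytochrome c oxidase subunit 3. The model thus covers a stretch that resembles several mitochondrial genes, and its value cannot be read as a measure of ND5 alone. How reads on overlapping models were counted is not stated, so which part of the stretch gave the counts is not known. Read along arm 5p, the described genes ran COX1, ND1, ND5, COX3, which is backward relative to the order on the mitochondrial ring of the RefSeq axolotl annotation (assembly UKY_AmexF1_1, used only for names and gene order). The MT-CO1 model, the ND5 model and the 3 further models are all annotated on the plus strand, and strand was not compared with the ring.

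The other places were shorter runs of the same kind. Arm 6p, at chr6p:260333179-260346512, held COX1, ND4, ND5, CYTB and ND1 over 13334 bases in the forward ring order. Arm 2p, at chr2p:59530451-59540583, held 7 models (2 CYTB, 2 ND5, 1 ND4 and 2 COX1) over 10133 bases in the backward order. There the COX1 models AMEX60DD020311 on the plus strand and AMEX60DD020312 on the minus strand overlap by 2736 bases, so their reads cannot be told apart without a strand setting. In the table AMEX60DD020312 had 0 counts. Arm 2q held 2 blocks, COX2, COX3, ND4, ND5 and 2 CYTB models over 8260 bases in the forward order at chr2q:1373208763-1373217022, and ND4L and COX1 over 5504 bases at chr2q:1375029418-1375034921. Lone models lay on arms 1p (COX2), 5q (COX2) and 8p (ND2).

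**Figure D1:**
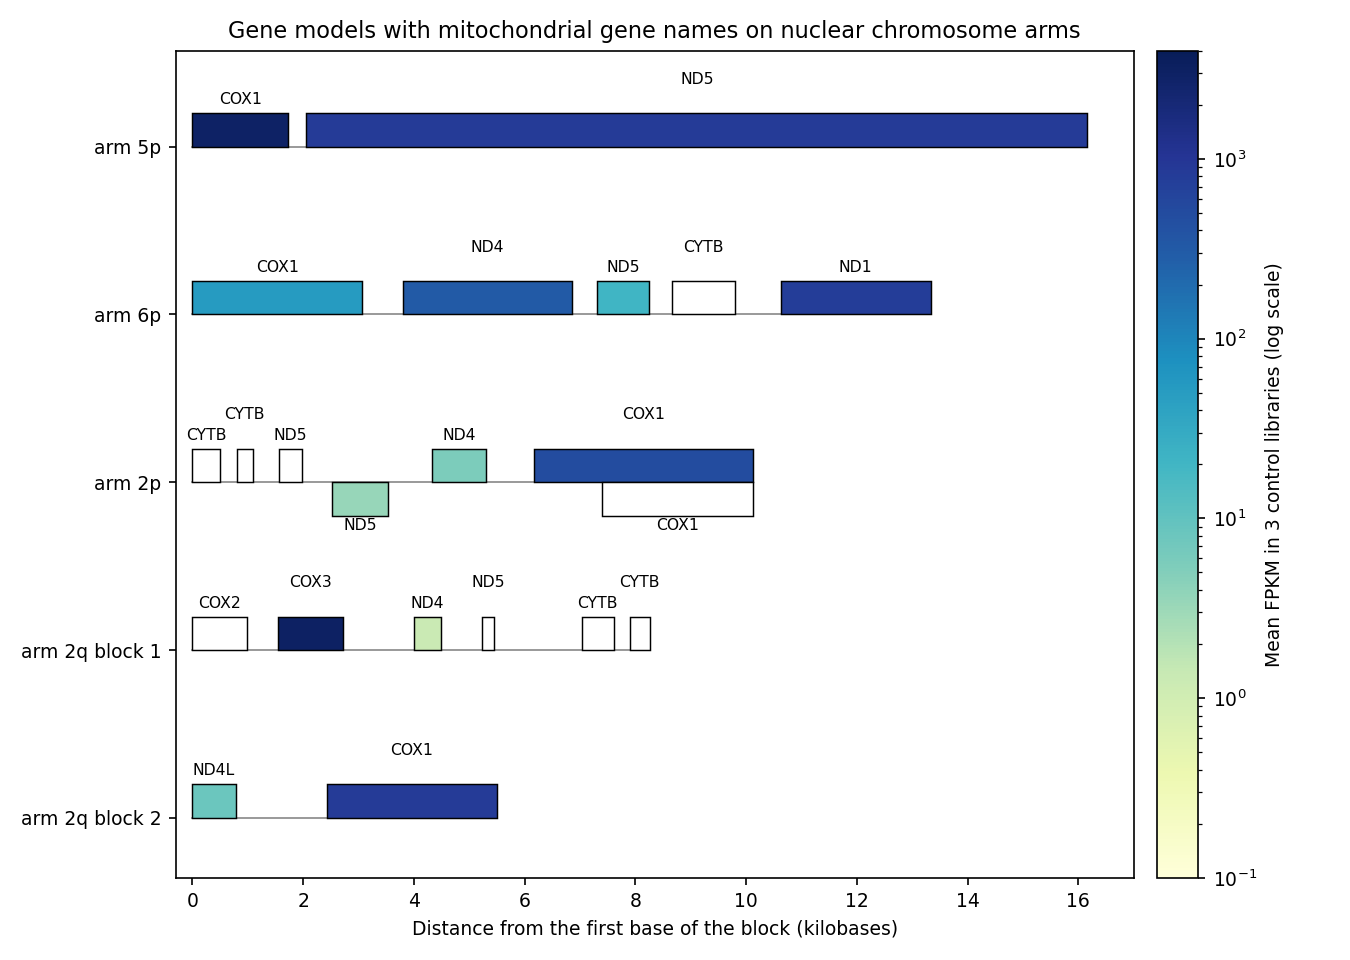
Gene models with mitochondrial names at the 5 places that hold more than 1 model, drawn to scale by their distance in kilobases from the first base of each place, with plus-strand models above the line and minus-strand models below it. Colour gives the mean FPKM over the 3 control libraries on a log scale, and white marks models under 0.1 FPKM; abundant models sat beside models with no counts at the same place.

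Of the 25 models, 17 had a count in at least 1 library and 8 had none. The RefSeq ring carries 13 protein genes, of which 9 had at least 1 model in the table and 4 (ATP6, ATP8, ND3 and ND6) had none. Only 5 genes had over 1000 counts summed over the 5 libraries: ND5 with 696314, COX1 with 581101, COX3 with 217834, ND1 with 133730 and ND4 with 59065. ND4L followed with 381 counts, COX2 with 39, ND2 with 22 and CYTB with 4. The ND5 and MT-CO1 models of arm 5p took 58.7% of all counts of the 25 models, and the 7 most abundant models took 99.2%. By raw count the arm 5p ND5 model ranked 3 or 4 among all genes in every library, and the MT-CO1 model ranked between 9 and 20.

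Per length, the order was different. In FPKM as the authors deposited them (fragments per kilobase of model length, scaled to library size), the COX3 model AMEX60DD026192 on arm 2q stood at 3108 ± 317 (mean ± SD over the 3 control libraries) and the MT-CO1 model AMEX60DD038501 at 2916 ± 460. These levels lay within each other's spread, and their order was exchanged in control library 2. A second group followed with COX1 AMEX60DD026201 at 862 ± 97.6, ND5 AMEX60DD038502 at 838 ± 136 and ND1 AMEX60DD041812 at 770 ± 7.56 FPKM, which also did not differ beyond their spread and changed order between libraries. Below them came COX1 AMEX60DD020311 at 491 ± 42.8, ND4 AMEX60DD041809 at 310 ± 10.3 and COX1 AMEX60DD041808 at 52.7 ± 9.23 FPKM, whose order was the same in all 5 libraries. COX1 AMEX60DD020311 and ND5 AMEX60DD038502 overlap other models that had 0 counts, and their FPKM use the full model length. How reads on the overlaps were counted is not stated, so the places of these models in the order may not follow their RNA levels. In the gentamicin libraries COX3 again led with 1658 and 1594 FPKM, followed by MT-CO1 with 1403 and 1440.

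In the kidneys of gentamicin-treated animals, RNA assigned to these genes was lower. Of the 13 models that passed the filter on low counts, 8 fell and 0 rose by edgeR's quasi-likelihood test at a Benjamini-Hochberg adjusted p under 0.05, against 26.8% of all 22006 genes tested that changed in either direction, 13.4% that fell and 13.3% that rose. This even split of all genes belongs to TMM scaling: with total-count scaling 1895 genes (8.61%) fell and 6192 rose, and 7 of the 13 models fell. At an unadjusted p under 0.05 in the same test, 10 of the 13 were lower and 0 higher. The share of all genes at that threshold was not computed, so this count cannot be set against a background. DESeq2 called 9 lower and 0 higher, against 15.1% of all genes tested that fell by DESeq2. Several of the 13 models carry the same gene name and could share reads, so they are not 13 separate results. With the models of each name summed, edgeR called ND5, COX1, COX3, ND1 and ND4 lower, and did not call ND4L or COX2. Together the 25 models took 2.80%, 2.76% and 2.37% of all counts in control libraries 1, 2 and 3, and 1.71% and 1.69% in gentamicin libraries 1 and 3. The group means were 2.64% ± 0.236 and 1.70% ± 0.0159, a ratio of 1.56, and the groups did not overlap. In whole kidney RNA, fewer cells of a type and less RNA per cell cannot be told apart. The animals were different in each library, so the p-values measure the spread between animals.

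Among the genes of complex I, which passes electrons from NADH to ubiquinone and pumps protons, the arm 5p ND5 model AMEX60DD038502 was the most abundant. It stood at 13697, 12483 and 9987 CPM in control libraries 1, 2 and 3 and at 6458 and 5559 CPM in gentamicin libraries 1 and 3. Every gentamicin value was below every control value, and control library 3 was the lowest control. The level was 2.01 times lower, and the log2 fold change was -1.0 with an SE of 0.178 (edgeR adjusted p = 0.00423). ND5 itself is a proton-pumping subunit at the far end of the membrane arm of complex I, but this model spans several genes.

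ND1, the membrane subunit next to the site where ubiquinone binds, had the tightest values. Its model AMEX60DD041812 on arm 6p stood at 2123, 2130 and 2183 CPM in the controls and at 1325 and 1331 CPM with gentamicin. The groups were far apart relative to their spread on the TMM scale, and the log2 fold change was -0.69 (SE 0.118, edgeR adjusted p = 0.00346), the smallest among the 8 models that fell. With total-count scaling the log2 fold change of ND1 was -0.37 (edgeR adjusted p = 0.0292). ND4, another proton-pumping subunit, was carried mainly by AMEX60DD041809, also on arm 6p, with 971, 930 and 998 CPM in the controls and 506 and 601 CPM with gentamicin. Again the groups did not overlap, and the log2 fold change was -0.80 (SE 0.129, edgeR adjusted p = 0.00253).

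The remaining ND models held few counts. ND5 AMEX60DD041810 on arm 6p stood at 15.3, 29.7 and 13.3 CPM in the controls and 8.25 and 7.73 CPM with gentamicin, without overlap. Its log2 fold change was -1.28 (SE 0.368), with an edgeR adjusted p of 0.0447 that became 0.0768 with total-count scaling, 0.0568 without control 1, 0.207 without gentamicin 1, 0.241 without gentamicin 3, and 0.0619 to 0.149 in fits on the deposited FPKM. The call was kept under 10 of 17 alternatives. ND5 AMEX60DD020309, on the minus strand of arm 2p, had 11, 24 and 113 counts in the controls and 6 and 6 with gentamicin, so that control library 3 stood far above the others. Its log2 fold change was -3.41 (SE 1.14, edgeR adjusted p = 0.0805), and the adjusted p was 0.0243 without control 1, 0.0023 by DESeq2 and 1.422e-07 without a filter on low counts.

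The ND4 model on arm 2p and the ND4L model on arm 2q, both with few counts, did not pass the test. ND4 AMEX60DD020310 stood at 4.38, 5.66 and 6.63 CPM in the controls and 3.50 and 2.91 CPM with gentamicin, without overlap, and its log2 fold change was -0.80 (SE 0.279, edgeR adjusted p = 0.0697), which passed without control 1 (adjusted p = 0.033) and in the filtered fits on FPKM (0.0468 and 0.0437). ND4L AMEX60DD026200, named for a small subunit of the membrane arm, stood at 2.92, 11.3 and 5.77 CPM in the controls and 3.32 and 2.75 CPM with gentamicin. These groups overlapped, the log2 fold change was -1.14 (SE 0.546, edgeR adjusted p = 0.18), and the adjusted p was 0.0165 without control 1 and 0.00267 without a filter on low counts. Too few reads for a test fell on ND4 AMEX60DD026194, with 5, 14 and 6 counts in the controls and 5 and 3 with gentamicin, and on ND2 AMEX60DD051498, with 5, 9 and 2 counts against 6 and 0.

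Complex IV, cytochrome c oxidase, passes electrons to oxygen, and COX1 is its catalytic core subunit. The MT-CO1 model AMEX60DD038501 on arm 5p stood at 5068, 5976 and 4384 CPM in the controls and at 2471 and 2527 CPM with gentamicin. The groups did not overlap and the gentamicin libraries were close to each other. The log2 fold change was -1.04 (SE 0.163, edgeR adjusted p = 0.00232), a 2.06-fold lower level. In FPKM the same model stood at 2890, 3388 and 2469 in the controls against 1403 and 1440.

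Of the other tested COX1 models, 2 fell and 1 did not pass the test. AMEX60DD026201 on arm 2q stood at 2776, 2959 and 2380 CPM in the controls and 1275 and 1445 CPM with gentamicin, and its log2 fold change was -0.99 (SE 0.148, edgeR adjusted p = 0.00177). AMEX60DD020311 on arm 2p stood at 2153, 1821 and 1979 CPM in the controls and 1246 and 853 CPM with gentamicin, and its log2 fold change was -0.92 (SE 0.182, edgeR adjusted p = 0.00725). Neither model's groups overlapped, and gentamicin library 3 was the lowest for the model on arm 2p but not for the model on arm 2q. COX1 AMEX60DD041808 on arm 6p, in contrast, stood at 188, 133 and 175 CPM in the controls and 122.6 and 147.3 CPM with gentamicin. These groups overlapped, and the log2 fold change was -0.29 (SE 0.168, edgeR adjusted p = 0.248), or 0.03 with total-count scaling.

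Among counts of all COX1 models, the share of AMEX60DD041808 was 1.85%, 1.22% and 1.96% in the controls and 2.40% and 2.96% with gentamicin. Every gentamicin share was above every control share, and this comparison does not depend on how libraries were scaled, but no test of the difference between COX1 models was run. The MT-CO1 model held 51.3% ± 3.14 of COX1 counts in the controls and 49.6% ± 1.78 with gentamicin, whereas the model on arm 2q held 26.7% to 27.3% in the controls and 24.9% and 29.1% with gentamicin. The model on arm 2p held 16.7% to 22.2% in the controls and 24.4% and 17.1% with gentamicin. For these 3 models the groups overlapped.

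COX3, a core subunit without a redox centre, had 1 model, AMEX60DD026192 on arm 2q. It stood at 4055, 3748 and 3343 CPM in the controls and 1979 and 1897 CPM with gentamicin. The groups did not overlap, and the log2 fold change was -0.94 (SE 0.139, edgeR adjusted p = 0.00174). COX2, whose copper centre takes electrons from cytochrome c, was nearly absent from the counts. AMEX60DD014875 on arm 1p had 12, 2 and 17 counts in the controls and 8 and 0 with gentamicin, with an overlap and no call (log2 fold change -1.73, SE 1.26, edgeR adjusted p = 0.364), and the COX2 models on arms 2q and 5q had 0 counts. A test on the models of each name summed gave -0.99 for COX1, -1.01 for ND5 and -0.81 for ND4 (edgeR adjusted p = 0.00171, 0.00408 and 0.00246). Of the 696314 counts summed as ND5, 695084 came from the arm 5p model, which spans several genes.

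Cytochrome b, the CYTB product, is the subunit of complex III that oxidises ubiquinol. Its 5 models held 4 counts in all: 1 and 1 for AMEX60DD026197 in control library 1 and gentamicin library 1, and 2 for AMEX60DD041811 in control library 3. The AMEX60DD041811 model is flanked on arm 6p by ND5 and ND1 models, of which the ND1 model had 133730 counts. The models without counts were 3 CYTB, 2 ND5, 2 COX2 and 1 COX1 model, and they sat at the same places as the abundant ones except for COX2 on arm 5q. No difference between the groups was detectable at this depth for any of the 12 models that were not tested.

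**Figure D2:**
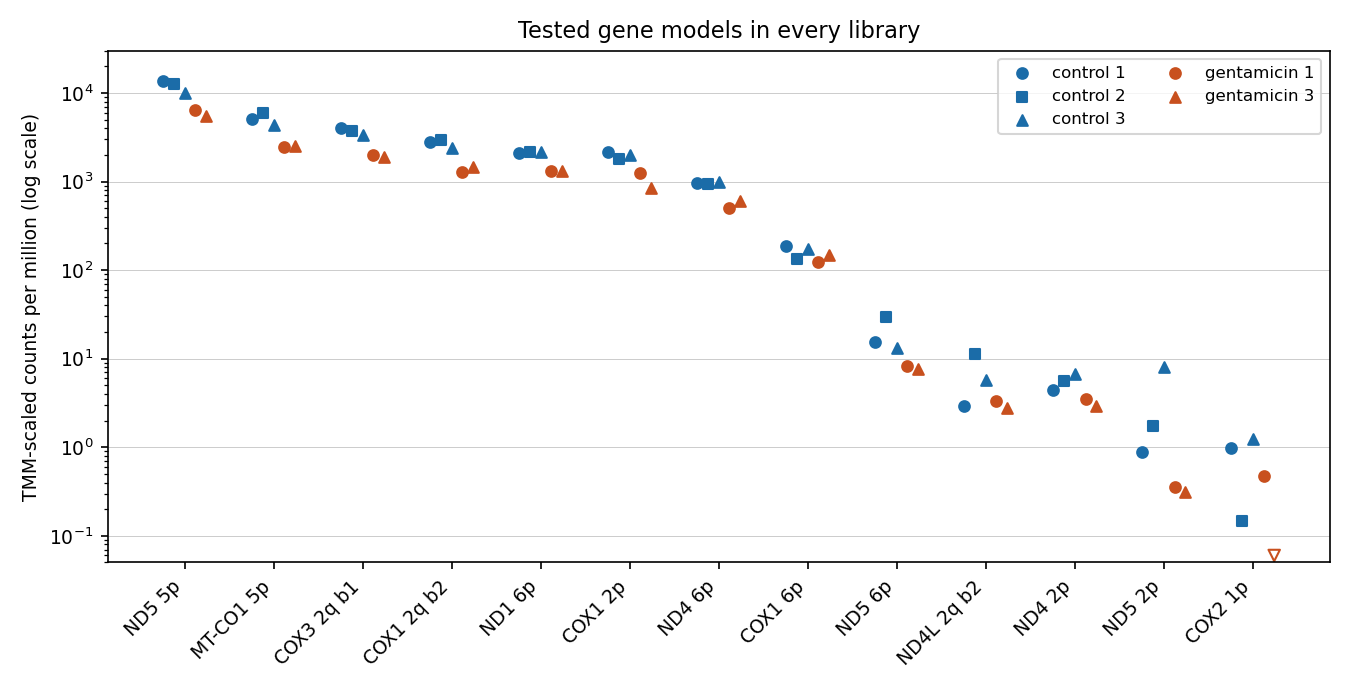
CPM scaled with TMM (log axis) of the 13 tested gene models in each of the 5 libraries, controls in blue and gentamicin in orange, with the library number given by the symbol. An open triangle at the bottom marks a library with 0 counts; for the 7 most abundant models every gentamicin value lay below every control value.

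In 10 of the 13 tested models every gentamicin value was below every control value, against 26.7% of all genes tested with such an order. The median log2 fold change of the 13 models was -0.99, beside 0.01 over all genes tested. With libraries scaled by their total counts in place of TMM (trimmed mean of M values), the median over all genes moved by 0.32 on the log2 scale, to 0.33, and that of the 13 models to -0.67. Such a scaling moves all genes by about the same amount. Under it all tested models except COX1 AMEX60DD041808 kept a negative log2 fold change. The 7 most abundant models kept their call under every alternative run, with log2 fold changes of -0.68 to -1.14 for the arm 5p ND5 model and -0.72 to -1.16 for the MT-CO1 model.

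**Figure D3:**
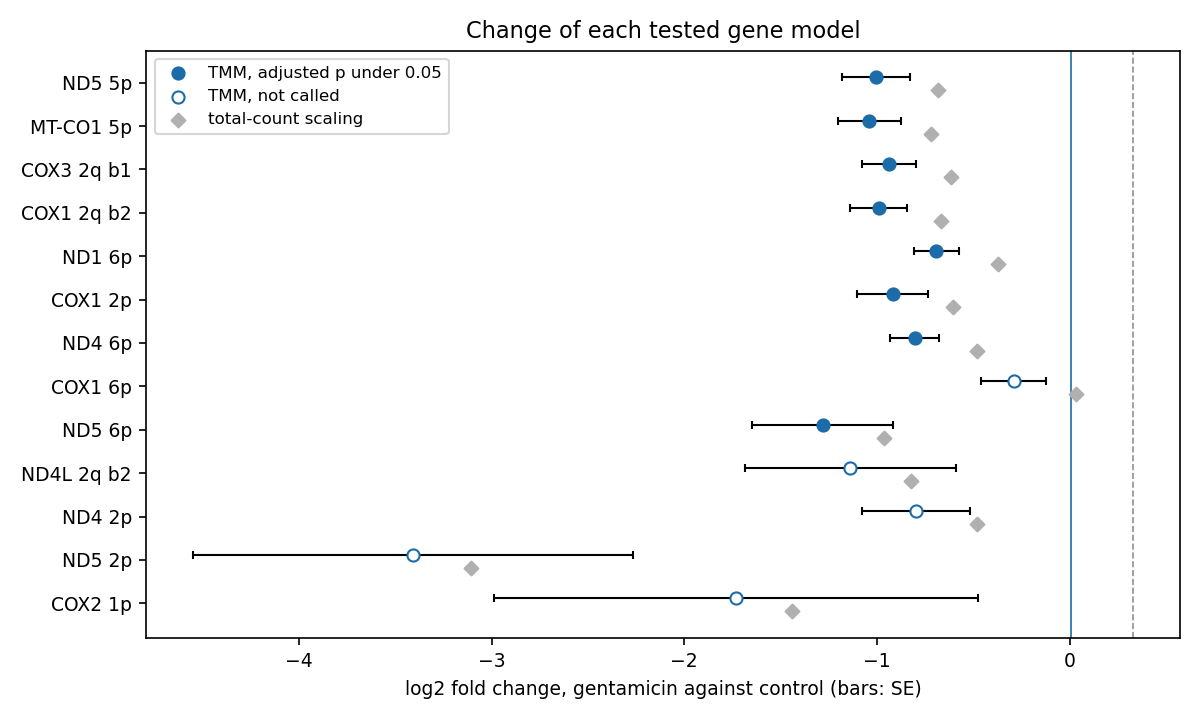
Log2 fold change of gentamicin against control for the 13 tested gene models, with bars for the standard error and filled circles for an edgeR adjusted p under 0.05. Grey diamonds give the value with total-count scaling, and the solid and dashed vertical lines give the median of all genes tested under TMM (0.01) and total-count scaling (0.33); 8 models were called lower.

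The log2 ratio of counts on ND models to counts on COX models was 0.24, 0.09 and 0.11 in control libraries 1, 2 and 3 and 0.23 and 0.13 in gentamicin libraries 1 and 3. The groups overlapped, and their means of 0.15 ± 0.08 and 0.18 ± 0.07 differed by less than the spread between libraries (exact permutation test, two-sided p = 0.6, the smallest possible with 10 splits being 0.1). Within arm 5p, the log2 ratio of the ND5 model to the MT-CO1 model was 1.23 ± 0.19 in the controls and 1.26 ± 0.18 with gentamicin (exact permutation test, two-sided p = 0.8). On the deposited FPKM, which weights each model by its length, the log2 ratio of ND to COX models was -1.92, -2.0 and -1.84 in the controls and -1.79 and -1.80 with gentamicin. There the groups did not overlap and their means differed by 0.13, more than either SD (exact permutation test, two-sided p = 0.2). These p-values do not show that the ratios were equal, since 3 libraries against 2 cannot reach 0.05. Most ND counts came from the arm 5p ND5 model, which spans several genes. It held 168706 of 207116 ND counts in control library 1 and 108793 of 139910 in gentamicin library 1. The count ratios are therefore not a measure of complex I messages against complex IV messages.

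Shares of single models among the counts of all 25 differed by less than the spread between libraries for the 4 most abundant models. The arm 5p ND5 model held 41.5% ± 2.45 in the controls and 40.3% ± 2.31 with gentamicin, MT-CO1 held 17.8% ± 1.79 and 16.8% ± 1.09, and COX3 held 12.9% ± 0.401 and 13.0% ± 0.242. The share of ND1 was 6.84%, 7.05% and 8.57% in the controls and 8.61% and 9.26% with gentamicin. Its groups were separated only narrowly (8.57% against 8.61%). The means of 7.48% ± 0.948 and 8.93% ± 0.461 differed by more than either SD, a difference that was not tested. The share of COX1 AMEX60DD041808 also did not overlap, at 0.605%, 0.440% and 0.686% in the controls and 0.796% and 1.03% with gentamicin. For the other abundant models the groups overlapped. Taken by place, arm 5p held 59.3% ± 2.51 and 57.1% ± 1.22 of the counts, and arm 6p held 10.6%, 10.7% and 13.2% in the controls and 12.7% and 14.5% with gentamicin.

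**Figure D4:**
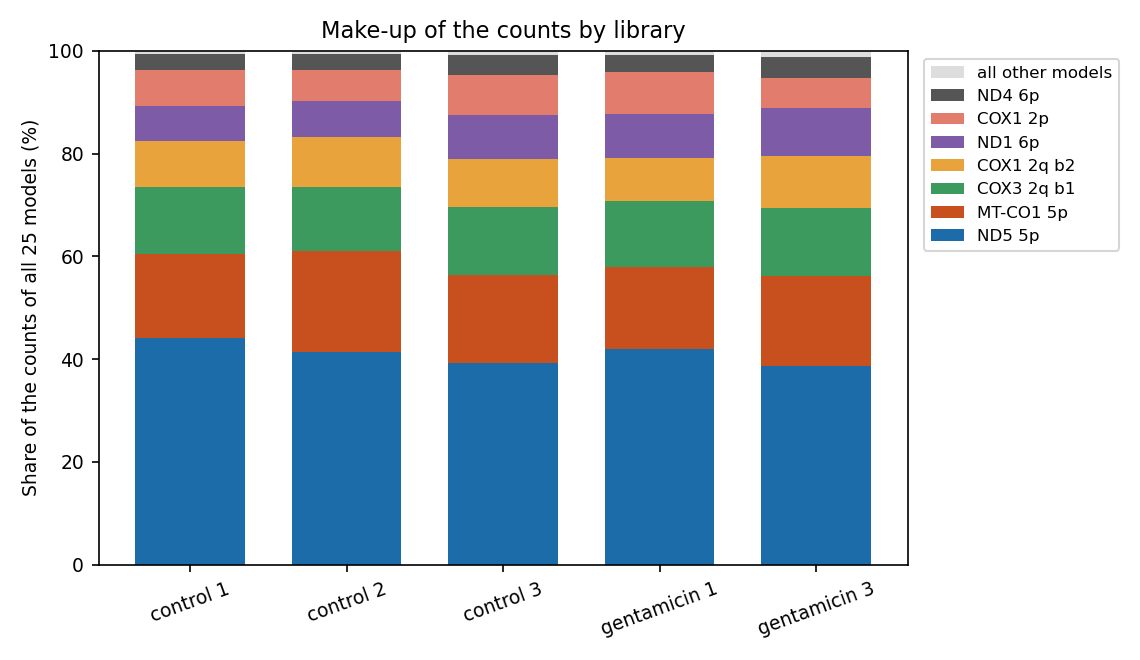
Share in percent of the counts of all 25 gene models that each of the 7 most abundant models took in each library, stacked from 0 to 100, with all other models in light grey. The arm 5p ND5 model, at the bottom, took about the same share in the 3 control and the 2 gentamicin libraries (means 41.5% and 40.3%).

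Profiles over the 5 libraries were compared with that of the arm 5p ND5 model by the root mean square difference of centred log2 CPM. The 5 nearest were sought among genes outside the 25 models that have a symbol and a mean log2 CPM of at least 1. They were LOC106732414 (0.0459), EXOC6 (0.0541), TXNRD2 (0.0547), SOD2 (0.0620) and ATP5MF (0.0632). TXNRD2 and SOD2 encode mitochondrial enzymes of redox defence, ATP5MF a subunit of the ATP synthase and EXOC6 a subunit of the exocyst. Among the models with mitochondrial names, COX3 AMEX60DD026192 was nearest to the arm 5p ND5 model at 0.0841, and MT-CO1 followed at 0.144. Their ranks were 20 and 169 among all 22006 genes tested, with or without a symbol and counting the ND5 model itself. With the group difference shared by many genes, 5 libraries give little to tell such profiles apart.

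The nuclear genes whose products join or serve these proteins were compared in the same test. Of 32 tested models of nuclear-encoded complex I subunits 29 fell and 0 rose, with a median log2 fold change of -0.73. NDUFS1, which carries iron-sulfur clusters of the complex, fell by 0.53 on the log2 scale (edgeR adjusted p = 0.00868) and NDUFS4 by 1.05. In complex II, which has no mitochondrially encoded subunit, 3 of 3 models fell, with SDHA, its flavoprotein, at -0.96 (edgeR adjusted p = 0.00085) and SDHB at -1.25. All 12 models of complex III fell (median -0.78), including CYC1, its cytochrome c1 subunit, at -0.49 for AMEX60DD040738 and -0.77 for AMEX60DD014778. In complex IV 10 of 15 models fell and 1 rose, and in the ATP synthase 16 of 21 fell and 0 rose, with medians of -0.77 and -0.76. COX4I1, a regulatory subunit of complex IV, stood at -0.77 for AMEX60DD017253 (edgeR adjusted p = 0.00365) and ATP5F1B, the catalytic beta subunit of the ATP synthase, at -0.93 (edgeR adjusted p = 0.00175). The other COX4I1 model, AMEX60DD038632, was not called (log2 fold change -1.77, edgeR adjusted p = 0.158).

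The smallest p-values within complex IV belonged to COX4I2 (-2.49), COX7A1 (-1.85) and NDUFA4 AMEX60DD051689 (-1.64), which are alternative or tissue-restricted subunits or, for NDUFA4, a subunit first assigned to complex I. The other NDUFA4 model, AMEX60DD016167, stood at -0.43 with overlapping groups (edgeR adjusted p = 0.181). COX7B AMEX60DD037088 stood at -2.32 without a call (edgeR adjusted p = 0.0598). The other COX7B model, AMEX60DDU001007364, stood at 0.12 with overlapping groups and no call (edgeR adjusted p = 0.927). The model that rose was COX6B1 AMEX60DD016179, whose neighbour AMEX60DD016178 of the same name fell, and this rise was not called without control 1, gentamicin 1 or gentamicin 3. With total-count scaling 18 models of complex I and 6 of complex III were called lower, and the same numbers were called without gentamicin 3. NDUFS1, SDHC and both CYC1 models were among those not called with total-count scaling (edgeR adjusted p = 0.191, 0.347, 0.34 and 0.17). COX6B1 AMEX60DD016178 was not called with that scaling either (edgeR adjusted p = 0.431). It overlaps AMEX60DD016179, which is annotated on the opposite strand. No test set these lists against the mitochondrial names.

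Genes that transcribe, copy and process mitochondrial DNA and RNA were called lower at a rate near that of all genes tested (13.4%). Of 31 tested models for transcription and RNA processing 4 fell and 2 rose (median -0.01), and of 21 for DNA replication and maintenance 4 fell and 0 rose (median -0.06). TFAM, which packages mitochondrial DNA and starts its transcription, stood at 18.02, 17.5 and 18.97 CPM in the controls and 14.7 and 14.6 CPM with gentamicin, without overlap, but did not pass the test (log2 fold change -0.31, edgeR adjusted p = 0.147) and stood at 0.01 with total-count scaling. POLRMT, the mitochondrial RNA polymerase, stood at -0.03 (edgeR adjusted p = 0.917), LRPPRC, which stabilises mitochondrial messages, at 0.10 (edgeR adjusted p = 0.721), and TWNK, the helicase, at -0.36 (edgeR adjusted p = 0.322). These values did not pass the test, and those of POLRMT and LRPPRC changed sign with the library left out.

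Among the models that passed it, HSD17B10, a subunit of mitochondrial RNase P that also oxidises fatty acid intermediates, fell by 2.02 on the log2 scale, PTCD1 by 0.86, PRORP, the nuclease of that RNase P, by 0.69 and PTCD2 by 0.66, whereas PNPT1, a mitochondrial RNA-degrading enzyme, rose by 1.11 and PTCD3 by 0.48. The rise of PNPT1 was not called without gentamicin 3, and PRORP and PTCD2 were not called with total-count scaling (edgeR adjusted p = 0.106 and 0.258). TYMP, MGME1 and MPV17 fell by 2.51, 1.81 and 1.52, and POLG, the mitochondrial DNA polymerase, fell by 0.66 for AMEX60DD004160 (edgeR adjusted p = 0.0259), a call lost with total-count scaling and without control 1, gentamicin 1 or gentamicin 3. POLG AMEX60DD004162 stood at 0.09 and was not called. Of 20 models for translation and membrane insertion of mitochondrially encoded proteins 3 fell and 0 rose (median -0.33): OXA1L, the insertase, at -0.95, TACO1, which activates COX1 translation in mammals, at -0.81, and the elongation factor TUFM at -0.44, which was not called with total-count scaling (edgeR adjusted p = 0.466). Of 43 models of assembly factors 10 fell and 1 rose (median -0.41), with FOXRED1 at -3.09, ACAD9 at -0.99 and COX15 at -0.74, while COX19 rose by 0.43, a call lost without control 1, control 3, gentamicin 1 or gentamicin 3 and in the fits on FPKM. The number of assembly factors called lower was 4 with total-count scaling, 5 without gentamicin 1 and 3 without gentamicin 3.

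Of 9 models of regulators of mitochondrial biogenesis, 1 fell and 1 rose (median -0.17). PPARGC1A, a coactivator that drives biogenesis, stood at -0.37 (edgeR adjusted p = 0.129). ESRRG AMEX60DD036107 fell by 0.76 and PPRC1 rose by 0.82, and neither call was kept without gentamicin 1 or without gentamicin 3. GABPA stood at 0.43 (edgeR adjusted p = 0.0509).

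**Figure D5:**
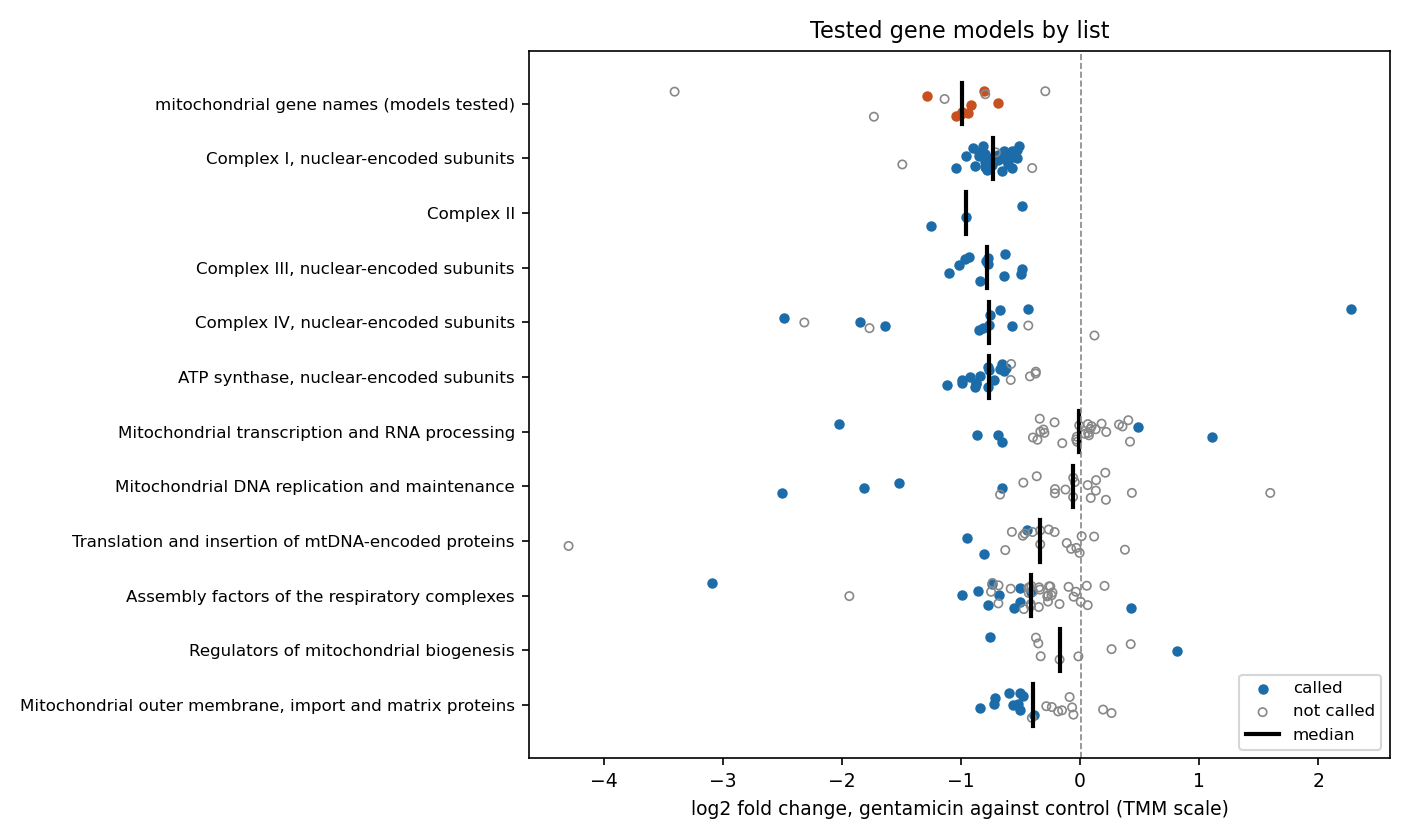
Log2 fold change of gentamicin against control for every tested model of the mitochondrial gene names (orange where called) and of 11 lists of nuclear genes (blue where called, open where not called), with black bars at the medians and the median of all genes as a dashed line. The medians of the 5 lists of respiratory complex subunits lay between -0.96 and -0.73, and that of the mitochondrial names at -0.99.

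Some cell type markers moved with the same contrast and others did not. The summed level of the proximal tubule markers was 11590 to 14006 CPM in the controls and 997 to 1018 CPM with gentamicin, 24 of 25 tested models fell, and no marker of that list was at 0. The summed level of the thick ascending limb, distal tubule and collecting duct markers was 4887 to 6237 CPM in the controls and 2918 to 3351 CPM with gentamicin (10 of 19 models fell and 2 rose, with AQP2 at 0 or without a model). Macrophage markers summed to 149 to 215 CPM in the controls and 1579 to 1816 CPM with gentamicin, and 9 of 11 tested models rose, with C1QC and CD163 at 0 or without a model. Skeletal and heart muscle markers, from another tissue rich in mitochondria, summed to 3.89 to 9.90 CPM in the controls and 3.68 to 5.86 CPM with gentamicin, with ACTA1 and MYH1 at 0 or without a model and 0 of 2 tested models called by edgeR or at an unadjusted p under 0.05. Granulocyte markers summed to 34.5 to 76.1 CPM in the controls and 111 to 171 CPM with gentamicin (4 of 5 rose), with ELANE, S100A8 and S100A9 at 0 or without a model. Podocyte markers summed to 609 to 721 CPM and 618 to 662 CPM (2 of 10 rose and 1 fell), and erythroid markers to 554 to 971 CPM and 617 to 665 CPM (3 of 8 rose and 1 fell, with HBB and GATA1 at 0 or without a model). Endothelial markers summed to 276 to 367 CPM and 285 to 317 CPM (0 of 9 called by edgeR and 1 at an unadjusted p under 0.05, with EMCN at 0 or without a model). Fibroblast and smooth muscle markers summed to 4694 to 8456 CPM and 7066 to 7294 CPM (0 of 10 called by edgeR and 1 at an unadjusted p under 0.05). The part of these cell types in the lower level of the mitochondrial names was not tested.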

How the data were processed

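The authors deposited a table of raw read counts and a table of FPKM for the same gene models, each under the name of the other. Per the submitters' processing notes, CASAVA 2.19, fastp, HISAT2 2.0.5, featureCounts 1.5.0-p3 and DESeq2 1.20.0 were used. The genome build, the strand setting and the treatment of reads with several alignments are not stated there. The deposited FPKM equal the count divided by gene length and library total, times 1 factor per library. This factor was higher in every control library than in either gentamicin library, so the fits on FPKM do not check the scaling independently.

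Counts were fitted with edgeR 4.0.16 in R 4.3.3: filterByExpr (minimum count 10, minimum total 15), TMM scaling, a robust quasi-likelihood model with the group as its only term, glmQLFTest (two-sided) and Benjamini-Hochberg adjustment over 22006 genes. CPM values are TMM scaled. Ratios of counts were compared with an exact permutation test over libraries. Alternatives were DESeq2 1.42.0, limma-voom, limma 3.58.1 on log2 of the deposited FPKM with a pseudocount of 1 or 0.1, other scalings and filters, the replicate number as a block, and each library left out in turn. The procedure was tested on simulated data.

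The members and the gene lists were chosen with earlier results of these data known. Named genes were all members, the 3 models with the smallest p in each list (mean log2 CPM of at least 1), 11 genes whatever their values, and 5 genes with the profile nearest to the most abundant member. Any other gene named was chosen after its values were seen. Groups come from the labels, and replicates are separate animals.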

Additional observations from a re-analysis of the deposited data

How the results depend on the processing

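The number of genes called over the whole table was 5890 and ranged from 2995 to 5733 with each library left out in turn, was 3624 in the fit on log2(FPKM + 1) without a filter, and was 4485 with the replicate number as a block. Deviations from the group mean had correlations of -0.04 and 0.06 between same-numbered libraries. With 2 gentamicin libraries these deviations mirror each other, so the correlations cannot decide whether the numbers mark a pairing. The block left 8 of 13 tested models with mitochondrial names lower, against 10.8% of all genes tested. Under the alternatives that kept the 2 gentamicin libraries, 7 to 10 of these models were called lower and 0 higher. The number of them tested varied there from 12 to 17, and the share of all genes called lower from 4.58% to 15.1%. The models called in the 11 lists numbered 107 and ranged from 59 to 105 with each library left out. The difference in log2 ratio of ND to COX counts was 0.03, ranged from -0.018 to 0.082 with each library left out and was 0.13 on the deposited FPKM. With total-count scaling, COX1 AMEX60DD041808 stood at 0.033, POLRMT at 0.29 and TFAM at 0.013. With each library left out, LRPPRC ranged from -0.068 to 0.25, POLRMT from -0.094 to 0.027 and POLG AMEX60DD004162 from -0.020 to 0.29. The cause of these shifts was not tested. The summed share kept its direction under the alternatives run (differences of -0.79 to -1.08 percentage points). With 2 gentamicin libraries, fits without 1 of them assume that the lone library varies like the controls.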

Other observations

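RNA for proteins of the outer membrane, import machinery and matrix, which are nuclear encoded and are not respiratory subunits, was compared in the same test. Of 20 tested models 10 fell and 0 rose by edgeR's quasi-likelihood test (median log2 fold change -0.39). The summed level of the list was 4802, 4444 and 4820 CPM in control libraries 1, 2 and 3 and 3510 and 3487 CPM in gentamicin libraries 1 and 3. VDAC2 AMEX60DDU001004083, a pore of the outer membrane, fell by 0.72 on the log2 scale, citrate synthase (CS) by 0.60 and CHCHD3, a scaffold of the inner membrane folds, by 0.71 (edgeR adjusted p = 0.003, 0.00538 and 0.00457). With total-count scaling 2 of the models, neither CS nor CHCHD3 among them, were called lower, and 3 without gentamicin 1 or without gentamicin 3.

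A further 6 models carried the description of a mitochondrial respiratory protein without a matching gene name, and 2 of them had counts. A model named COI on the unplaced contig C0216880 (AMEX60DDU001042139), described as cytochrome c oxidase subunit 1, had 40, 61 and 39 counts in control libraries 1, 2 and 3 and 43 and 14 in gentamicin libraries 1 and 3, so that the groups overlapped. A model on arm 2q described as NADH-ubiquinone oxidoreductase chain 4 (AMEX60DD026199) had 1 count.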
